A study of Mus musculus with 8 samples.

Results

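Carboxylesterase 2 genes were followed in the livers of male mice of the outbred CD-1 stock. For 7 days the animals had eaten either a control diet (0 ppm) or one that held 2500 ppm NaPB, which is sodium phenobarbital. Total liver RNA went onto 4 Agilent arrays per diet, each read in 1 colour, and the comparison asks which of these genes differed in level between the diets. The members are the mouse genes Ces2a, Ces2b, Ces2c, Ces2e and Ces2g, taken by gene symbol, and they have 8 of the 62976 features (spots) of the array and make 5 of 20738 named genes. Ces2c has 3 features, Ces2e has 2 and the others have 1 each. No member's symbol had to be updated from an older alias. The labels number the replicates of a diet but do not state that each was another mouse. The p-values therefore speak only for the spread among these samples, which may be technical. In whole liver, more cells of a type and more RNA per cell cannot be told apart. Control replicate 1 and NaPB replicate 4 were the least like the other arrays of their diet, with mean correlations across genes, which are not independent replicates, of 0.922 and 0.928, against 0.945 to 0.955 for the remaining arrays. The effects on the Ces2 genes are therefore also given without each of these arrays. NaPB replicate 2 was deposited with 3443 distinct values over its features and each other array with at least 62756.

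Carboxylesterases are serine hydrolases of the endoplasmic reticulum that split ester and amide bonds, turning ester prodrugs and other lipophilic compounds into acids and alcohols. Humans have a single CES2 gene, whereas the mouse has a cluster of Ces2 genes that arose by duplication. Some of the mouse enzymes also hydrolyse acylglycerols, the neutral lipids stored in hepatocytes. Phenobarbital acts in mouse liver through the nuclear receptor CAR, which with its relative PXR controls many genes of drug metabolism.

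On the NaPB diet the transcripts of 2 of the 5 genes rose, Ces2a by 5.21-fold and Ces2c by 5.72-fold, and none fell. Ces2b had a fold of nearly the same size, 4.94, but it did not pass the test with all arrays, and it did pass when NaPB replicate 4 was left out. Ces2g lay 1.69-fold and Ces2e 0.743-fold against the control diet, and neither passed. The test was limma's moderated test on log2 of the deposited intensity, over all named genes, each through its brightest feature, and a gene counted as called at a Benjamini-Hochberg adjusted p below 0.05. Of all genes, 0.391% were called higher and 0.617% lower; without NaPB replicate 4 these shares were 1.02% and 0.743%.

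The start sites of the genes that rose and of those that did not can be set side by side. The windows below are RefSeq sequences of the GRCm38.p6 assembly, 300 bases each, 250 before and 50 after the annotated start, and 4 of the 5 members matched the table; Ces2b had no entry. Each is printed 5′ to 3′ in lower case, and the capitals mark AGGTCA and ACTTTGCCC.
Ces2a (chr8:104733753-104734052, + strand): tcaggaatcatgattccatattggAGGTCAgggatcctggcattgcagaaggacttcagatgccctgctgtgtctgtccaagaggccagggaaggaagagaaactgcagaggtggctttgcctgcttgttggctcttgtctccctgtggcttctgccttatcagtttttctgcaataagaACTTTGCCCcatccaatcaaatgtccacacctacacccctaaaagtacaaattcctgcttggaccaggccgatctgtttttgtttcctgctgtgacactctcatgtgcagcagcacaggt
Ces2c (chr8:104846818-104847117, + strand): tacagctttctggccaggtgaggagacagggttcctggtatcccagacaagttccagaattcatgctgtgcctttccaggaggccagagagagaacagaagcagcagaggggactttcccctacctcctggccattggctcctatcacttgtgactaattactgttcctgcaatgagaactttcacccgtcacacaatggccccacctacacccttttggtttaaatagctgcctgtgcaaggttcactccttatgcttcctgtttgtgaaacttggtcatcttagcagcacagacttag
Ces2e (chr8:104926010-104926309, + strand): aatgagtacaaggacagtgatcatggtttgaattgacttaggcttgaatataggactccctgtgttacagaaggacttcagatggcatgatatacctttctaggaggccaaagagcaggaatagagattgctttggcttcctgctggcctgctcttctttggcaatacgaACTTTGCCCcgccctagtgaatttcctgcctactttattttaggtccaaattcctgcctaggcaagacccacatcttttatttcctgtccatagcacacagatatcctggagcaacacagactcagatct
Ces2g (chr8:104961468-104961767, + strand): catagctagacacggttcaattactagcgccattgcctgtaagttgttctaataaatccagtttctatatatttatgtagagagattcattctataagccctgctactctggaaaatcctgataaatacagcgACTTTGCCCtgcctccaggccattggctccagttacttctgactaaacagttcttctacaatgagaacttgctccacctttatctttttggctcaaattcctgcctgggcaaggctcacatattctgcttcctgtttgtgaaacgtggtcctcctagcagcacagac
Of these windows, Ces2a and Ces2c were the most alike, with 66.9% identical positions in a global alignment, and the other 5 pairs of members lay between 55.5% and 62.4%. Against the windows of other carboxylesterase families (36 pairs) the range was 47.8% to 53.2%, and against those of the remaining Ces2 genes (8 pairs) it was 48.5% to 58.2%. Ces2c and Ces2g share the longest unbroken stretch, 19 bases, and Ces2a and Ces2e share one of 17. Both strands were searched for AGGTCA and AGTTCA, the half-sites of nuclear receptors. AGGTCA occurs in Ces2a, starting 226 bases before the start site, and in no other of the 4 windows, against 16.3% of the 32851 windows in the table. AGTTCA, found in 14.0% of all windows, is in none of them. Direct repeats of these half-sites with 3, 4 or 5 bases between, in any combination, are rare in windows of this length (0.0122%, 0.0274% and 0.0396%) and absent from these. The element of the liver factor HNF1, searched as GTTAAT, any base and ATTAA (0.0609% of windows), and TATAAA (13.6%) did not occur either. The 9 bases ACTTTGCCC, picked after the sequences had been seen, stand in Ces2a, Ces2e and Ces2g, 70, 80 and 117 bases before the start site, in the window of Ces2f, which is no member, and in 0.262% of all windows. The stretch is thus in a window of a gene that rose and of others that did not pass, and it is not in that of Ces2c, which rose. A match or its lack describes only these letters in this window.

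Ces2a encodes an enzyme of liver and gut that hydrolyses acylglycerols. Its intensity was 122.0, 65.1, 94.4 and 98.4 on control replicates 1 to 4 and 510.2, 689.0, 528.0 and 292.4 on NaPB replicates 1 to 4. The lowest NaPB array, replicate 4, still lay well above the highest control array, so the diets did not overlap. The geometric mean was 92.7 on the control diet and 482.7 on NaPB, with SDs of 0.38 and 0.52 on the log2 scale (n = 4 each). The log2 fold change was 2.38 ± 0.33 (SE; 95% interval 1.65 to 3.11; limma adjusted p = 0.00802).

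Ces2c encodes the enzyme once described as an acylcarnitine hydrolase of liver microsomes and is also known to hydrolyse acylglycerols. Its brightest feature (number 54822) read 50.7, 24.7, 31.3 and 33.8 on the control arrays and 218.4, 245.3, 197.8 and 134.0 on the NaPB arrays, again without overlap. The log2 fold change was 2.52 ± 0.31 (SE; 95% interval 1.83 to 3.21; limma adjusted p = 0.0053).

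The other features of Ces2c gave the same size of difference from much dimmer spots. Feature 57455 read 3.29, 2.09, 2.44 and 3.63 on the control arrays and 21.7, 21.8, 18.3 and 5.52 on the NaPB arrays. Feature 49963 read 1.54, 0.923, 0.994 and 1.80 on the control diet and 10.73, 11.2, 10.1 and 2.81 on NaPB. On both, NaPB replicate 4 stood close to the controls without reaching them. With every feature of the array tested singly, the 3 features had log2 fold changes of 2.52 ± 0.33, 2.40 ± 0.45 and 2.60 ± 0.46, with limma adjusted p of 0.00643, 0.0333 and 0.0272. NaPB replicate 4 minus the mean of NaPB replicates 1 to 3 was −0.71 log2 units on the brightest feature and −1.90 and −1.92 on the dimmer ones. In this test 4 of the 8 features of the family were called higher and none lower, against 0.329% of all features called higher. The count was 5 without NaPB replicate 4, 3 without control replicate 1, and 2 in each fit that lacked NaPB replicate 1, 2 or 3 or control replicate 2, 3 or 4. Calls over all genes changed between these fits too. There were 209 with all arrays, 365 without NaPB replicate 4, 145 without control replicate 1 and as few as 88 without NaPB replicate 1.

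Ces2b, less well characterised, gave the least even reading. It was 3.02, 1.25, 1.85 and 2.36 on the control arrays and 15.6, 14.7, 14.3 and 3.00 on the NaPB arrays. NaPB replicates 1 to 3 lay within a narrow band far above the controls, and NaPB replicate 4 lay just below the highest control array. The log2 SD was 0.54 on the control diet and 1.15 on NaPB (n = 4 each), and the log2 fold change was 2.30 ± 0.53 (SE; 95% interval 1.14 to 3.47; limma adjusted p = 0.082). Without NaPB replicate 4 it was 2.88 ± 0.32 (limma adjusted p = 0.00395), and 3 of the 5 members were then called higher, against 1.02% of all genes. Without control replicate 1 as well, it was 3.07 (limma adjusted p = 0.00267). Of the 8 fits that lacked a single array, Ces2b was called in 1, the one without NaPB replicate 4. Without control replicate 1 alone its log2 fold change was 2.50 (limma adjusted p = 0.103), and without each of the other 6 arrays the limma adjusted p was 0.158 to 0.23.

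Ces2g had readings of 1.98, 1.59, 1.69 and 2.33 on the control arrays and 3.98, 4.15, 3.35 and 1.85 on the NaPB arrays. Here, too, NaPB replicates 1 to 3 were above every control array and NaPB replicate 4 was among the controls. The log2 fold change of 0.76 ± 0.32 (SE; 95% interval 0.06 to 1.46; limma adjusted p = 0.436) did not pass, nor did the value of 1.02 ± 0.25 without NaPB replicate 4 (limma adjusted p = 0.0921).

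Ces2e, a gene active in gut and liver whose enzyme also hydrolyses acylglycerols, was not called in either direction. Its brighter feature read 19.0, 9.43, 16.9 and 14.9 on the control arrays and 16.9, 13.7, 9.02 and 6.61 on the NaPB arrays. The diets overlapped, and the log2 fold change was −0.43 ± 0.36 (SE; 95% interval −1.23 to 0.37; limma adjusted p = 0.78). Its other feature was close to the background of the arrays, from 0.0732 to 0.150 on the control diet and from 0.118 to 0.525 on NaPB, where NaPB replicate 2 was the highest. The log2 fold change of that feature was 0.84 ± 0.47 (limma adjusted p = 0.665), so the features of Ces2e pointed in opposite directions and neither passed.

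**Figure D1:**
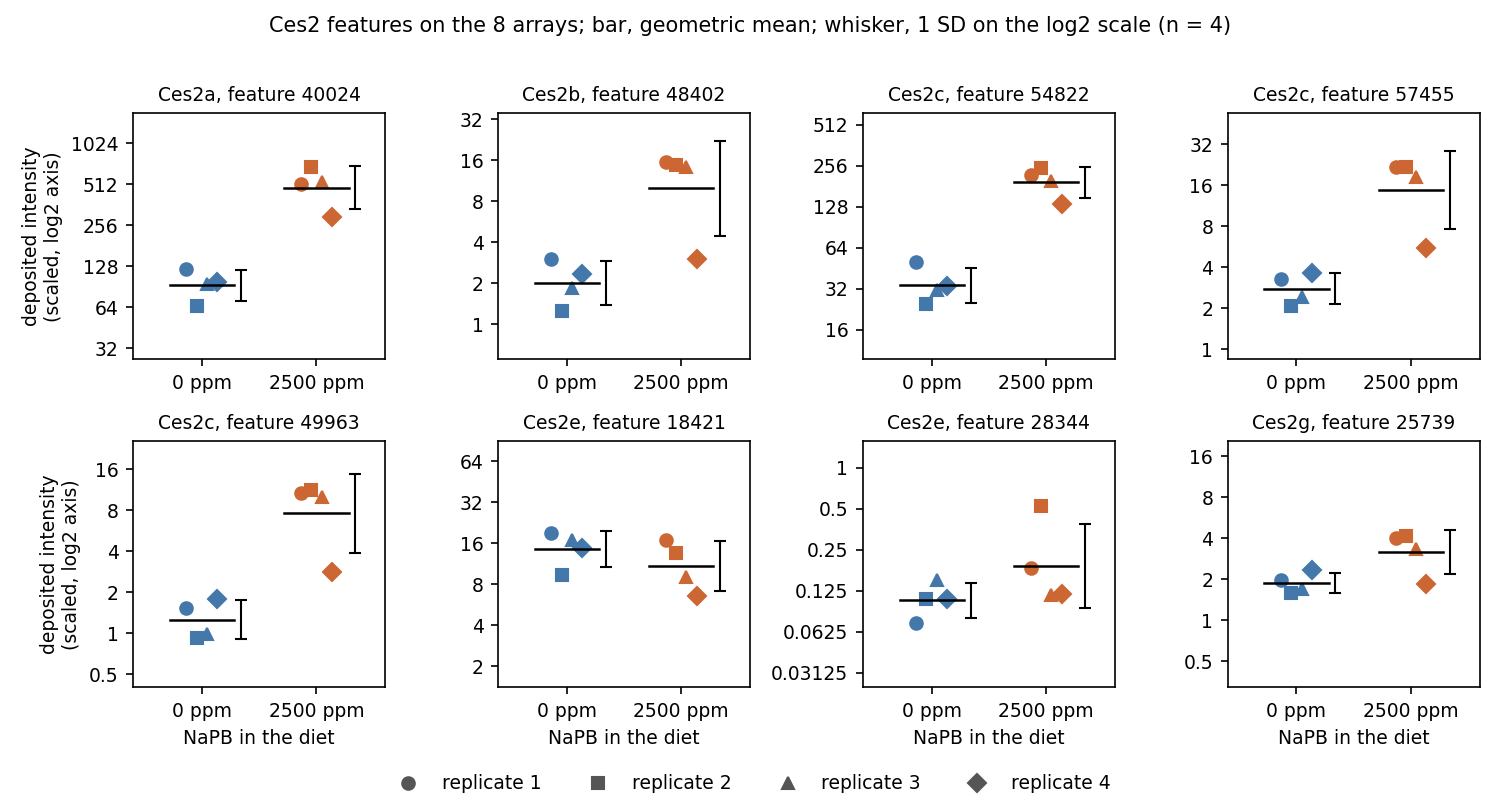
Deposited intensity (vertical axis, log2 spacing, the same number of doublings in every panel) of the 8 Ces2 features on 4 arrays per diet, marked by replicate, with the geometric mean as a bar and 1 SD on the log2 scale as a whisker. All features of Ces2a and Ces2c separate the diets, whereas NaPB replicate 4 (diamond) reaches the control range for Ces2b (3.00) and Ces2g (1.85).

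By their brightest features, 2 of the 5 members, Ces2a and Ces2c, had no overlap between diets, against 7.04% of all genes. The median log2 fold change was 2.30 over the 5 members and 0.01 over all genes. At an unadjusted p below 0.05 in limma, 4 of the 5 members were higher and none lower, against 4.34% and 5.77% of all genes. Because some members passed and others did not, the difference between members was tested as well. For each of the 10 pairs, the difference of the members' log2 values was taken on each array and compared between the diets with a two-sided exact permutation test over the 70 splits of the arrays, whose smallest possible p is 0.0286, adjusted over the 10 pairs.

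No difference passed the test among Ces2a, Ces2b and Ces2c, the genes with the largest effects. Ces2a exceeded Ces2b by 0.08 ± 0.36 log2 units (SE, exact permutation p = 0.914), and lay below Ces2c by a difference of −0.14 ± 0.11 (exact permutation p = 0.257). Ces2b differed from Ces2c by −0.21 ± 0.41 (exact permutation p = 0.971). These p-values do not show equal effects, since single NaPB arrays put Ces2b anywhere from 1.41 log2 units below Ces2c to 0.28 above it, relative to the control mean.

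Each of these 3 genes differed from Ces2e and from Ces2g. The effect of Ces2a was larger than that of Ces2e by 2.81 ± 0.21 and than that of Ces2g by 1.62 ± 0.17. For Ces2c the differences were 2.95 ± 0.21 and 1.76 ± 0.20, and for Ces2b they were 2.73 ± 0.40 and 1.54 ± 0.38. Ces2e also differed from Ces2g, by −1.19 ± 0.24. In all 7 of these pairs the arrays of the diets did not overlap, each exact permutation p was 0.0286 and each adjusted p was 0.0408. All 7 were also past the threshold without any 1 of the NaPB arrays. The difference between Ces2b and Ces2g was not past it without any 1 of the control arrays (exact permutation p = 0.0571, adjusted p = 0.0816 each time). When the features of each gene were averaged, the difference between Ces2e and Ces2g was not past it either (exact permutation p = 0.114), and the other 6 pairs were.

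NaPB replicate 4 was the lowest NaPB array for Ces2a, Ces2b, Ces2c, Ces2e and Ces2g by their brightest features. Its value minus the mean of NaPB replicates 1 to 3 was −0.96, −2.31, −0.71, −0.95 and −1.04 log2 units in that order, against a median of −0.20 over all genes. In a list of genes known to respond to phenobarbital, all 9 measured genes were lower on that array too, with differences of −0.84 to −3.70 log2 units. Of the 14 other measured carboxylesterases 9 were lower there, with differences from −2.93 to 1.73. Among them, Ces3a and Ces3b, whose log2 fold changes were negative, were at −2.08 and −1.72. Over all genes, 12335 of 20738 were lower on that array, so the count for the other carboxylesterases is close to the share of all genes. The cause of the lower readings was not tested. Of the 9 measured genes on the phenobarbital list, 3 rose (Cyp2b10, Cyp2c55 and Gstm3) and none fell, against 0.391% and 0.617% of all genes. All 9 had log2 fold changes above 0. At an unadjusted p below 0.05 in limma 7 were higher, against 4.34% of all genes. Cyp2b10, the P450 gene that phenobarbital is best known to induce, was 6.84 ± 0.69 log2 units higher on NaPB (limma adjusted p = 0.0018). Without NaPB replicate 4, 8 of the 9 genes on that list rose, against 1.02% of all genes. With that array left out, Ces2a and Ces2c had log2 fold changes of 2.62 ± 0.28 and 2.70 ± 0.29, and Ces2e had −0.19 ± 0.34. Without control replicate 1, Ces2a had 2.51, Ces2c 2.71, Ces2e −0.30 and Ces2g 0.79. Over all fits that lacked a single array other than NaPB replicate 4, the range was 2.21 to 2.51 for Ces2a and 2.36 to 2.71 for Ces2c, with both called each time.

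**Figure D2:**
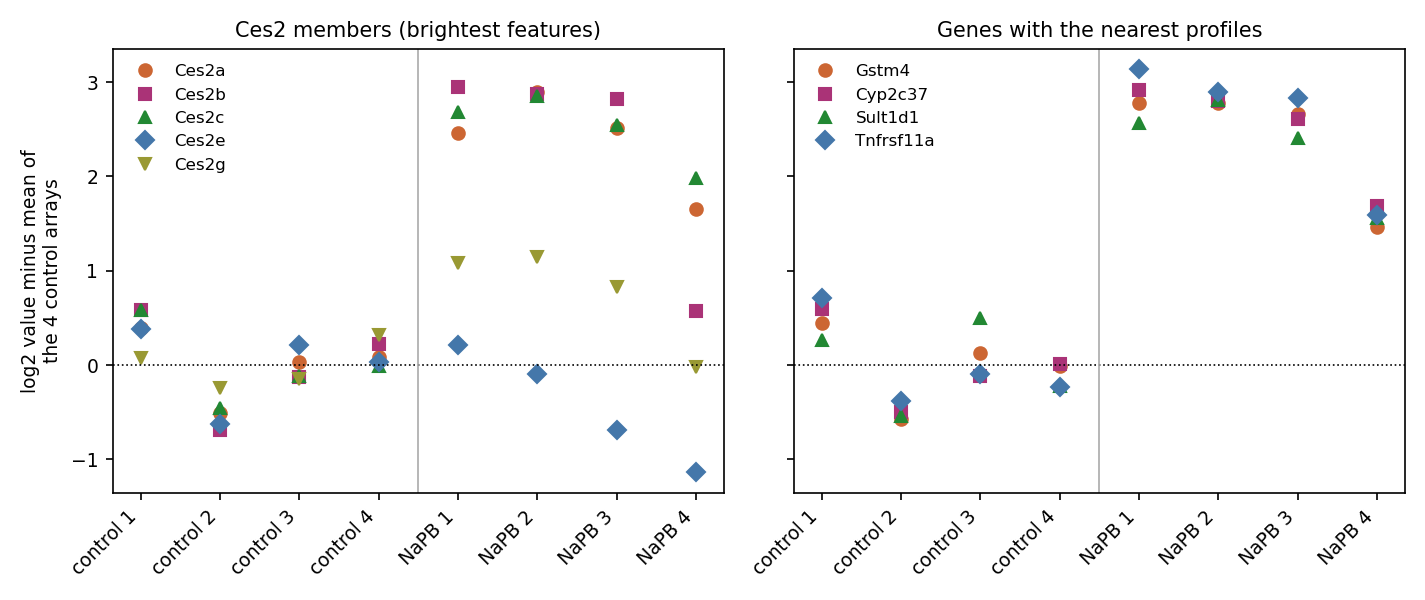
Log2 value of each array minus the mean of the 4 control arrays (vertical axis) for the 5 Ces2 genes (left) and for the genes with the nearest profiles (right). NaPB replicates 1 to 3 lie together for Ces2a, Ces2b and Ces2c, from 2.46 to 2.95, and NaPB replicate 4 lies lower, at 0.57 for Ces2b.

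The genes outside the carboxylesterases whose profiles over the 8 arrays came nearest to those of Ces2a and Ces2c were Gstm4, Cyp2c37, Sult1d1 and Tnfrsf11a. Nearness was the root mean square difference between log2 values centred over the arrays, which compares shapes and sizes together. For Ces2a the 3 nearest were Gstm4, a glutathione transferase gene (0.16 log2 units), Cyp2c37, a P450 gene (0.18), and Sult1d1, a sulfotransferase gene (0.21). For Ces2c they were Cyp2c37 (0.14), Gstm4 (0.21) and Tnfrsf11a, which encodes the receptor RANK (0.25). The distance between Ces2a and Ces2c themselves was 0.15. Since they were picked for values close to those of Ces2a and Ces2c on these arrays, the choice fixes their difference between diets, and it is given as a description with no test. The log2 fold changes were 2.42 ± 0.37 for Gstm4, 2.50 ± 0.35 for Cyp2c37, 2.34 ± 0.35 for Sult1d1 and 2.61 ± 0.39 for Tnfrsf11a.

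No other carboxylesterase gene was called in the main fit of all arrays. Of 15 other carboxylesterase genes in the list, 14 were measured and none was called by limma, against 1.01% of all genes called in either direction; at an unadjusted p below 0.05, 2 were higher and 3 lower. Over all genes, 4.34% were higher and 5.77% lower at that unadjusted threshold, which is the background for the unadjusted counts of the other lists too. The median log2 fold change of the 14 other measured carboxylesterases was 0.24. The other Ces2 genes had dim spots. Ces2f was at the floor, meaning no more than 2 times the lowest intensity on the array, on 7 of 8 arrays, and Ces2h, from 0.176 to 1.03 over all arrays, had a log2 fold change of −0.39 ± 0.52, with the sign turned without control replicate 2 (0.01). The pseudogene Ces2d-ps was not among the named features.

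**Figure D3:**
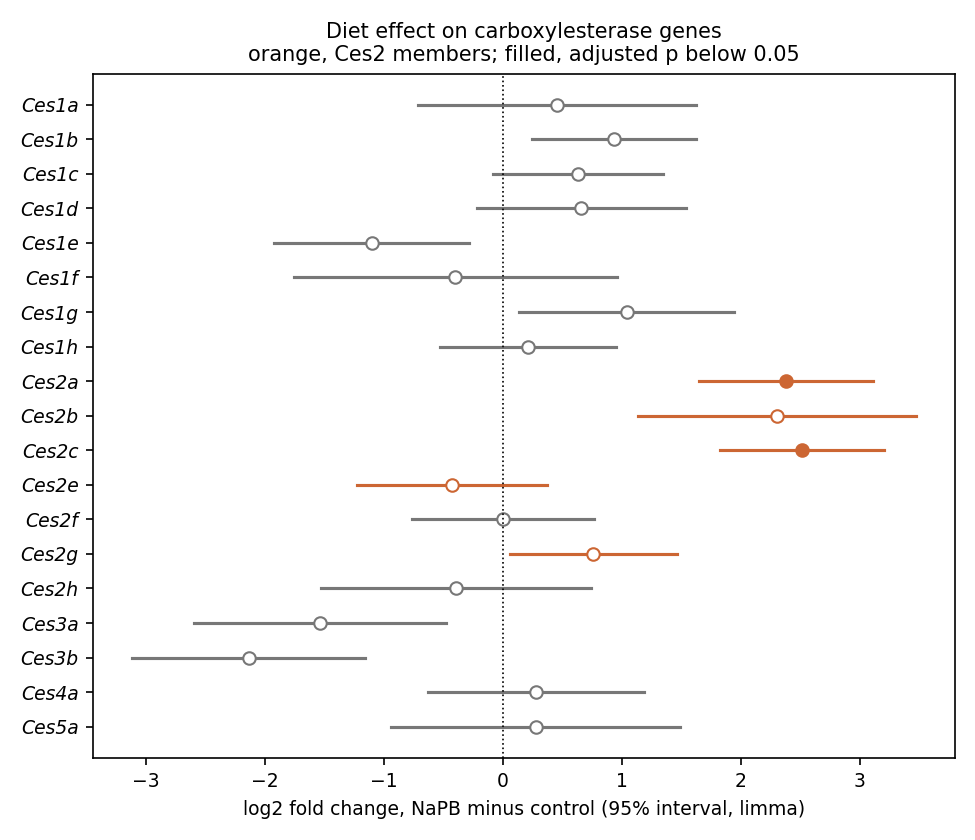
Log2 fold change, NaPB minus control, of each measured carboxylesterase gene by its brightest feature (point) with its 95% interval (line); Ces2 members are orange and called genes are filled. Ces2a (2.38), Ces2b (2.30) and Ces2c (2.52) have the highest values, and Ces3b (−2.13) has the lowest.

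Along chromosome 8 the reference table lists Ces2a, Ces2b, Ces2c, Ces2d-ps, Ces2e, Ces2f, Ces2g and Ces2h in turn, with Ces3a, Ces3b and Ces4a after them. The first 3 genes had log2 fold changes from 2.30 to 2.52, the measured genes after them lay between −0.43 and 0.76, and the next ones, Ces3a and Ces3b, had negative values. Ces3a, another liver carboxylesterase gene, read 253.9, 171.7, 226.0 and 209.5 on the control arrays and 75.5, 144.0, 107.3 and 25.0 on the NaPB arrays (log2 fold change −1.54 ± 0.48, limma adjusted p = 0.232). Ces3b read 29.8, 14.8, 18.9 and 18.9 on the control diet and 5.01, 8.56, 5.34 and 1.86 on NaPB (−2.13 ± 0.44, limma adjusted p = 0.0536). The diets did not overlap for either gene, and neither passed in the main fit of all arrays. Ces3b passed without NaPB replicate 2 (limma adjusted p = 0.0415) or without NaPB replicate 4 (0.0379). With all arrays kept, it also passed after quantile normalization (limma adjusted p = 0.0183) and with the filter on dim genes (0.0217). The same held with the pseudocount (limma adjusted p = 0.0363), the variance trend (0.0191) and array weights (0.0126). NaPB replicate 4 was the lowest array for both.

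Genes flanking the cluster gave no call. On the side of Ces2a these were Ciao2b (0.20 ± 0.43), Rrad (−0.54 ± 0.38), Cdh16 (−0.10 ± 0.39) and Pdp2 (0.49 ± 0.50), and on the far side Ces4a (0.28 ± 0.41) and Cbfb (−0.07 ± 0.26), all as log2 fold changes. The sign of Ciao2b turned without NaPB replicate 2, that of Cdh16 without control replicate 4 or NaPB replicate 4, that of Ces4a without control replicate 3 and that of Cbfb without NaPB replicate 4.

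No gene on the lists of other ester and lipid hydrolysis was called in the main fit of all arrays. Of 12 genes for other ester and amide hydrolases none passed in limma (none higher and 2 lower at an unadjusted p below 0.05; median log2 fold change −0.13), and the smallest p belonged to Cel, the bile salt-activated lipase, at −0.90 ± 0.26 (limma adjusted p = 0.18). Among 16 genes for neutral lipid lipases and their partners none passed in limma (2 higher and 2 lower unadjusted; median −0.01). Pnpla2, the adipose triglyceride lipase, had the smallest p of that list, with 0.85 ± 0.26 (limma adjusted p = 0.228). It passed under 1 of 18 alternatives, the array weights (limma adjusted p = 0.0435). None of 9 measured genes for nuclear receptors and liver transcription factors, CAR and PXR among them, passed in limma (none higher and 1 lower unadjusted; median −0.21). That lower gene was Ppara, the fatty acid receptor PPARα, at −0.94 ± 0.30 (limma adjusted p = 0.249).

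Marker lists were read as a check of the tissue. All 8 hepatocyte markers were measured and none was called (2 lower at an unadjusted p below 0.05 in limma); their summed intensity was 4191 to 7289 on the control arrays and 3147 to 5508 on the NaPB arrays. The 6 markers of intestinal epithelium, another site of Ces2 expression, summed to 9.67 to 22.5 and 5.32 to 14.6. None was called and none was at an unadjusted p below 0.05. Most of that sum came from Fabp2, with geometric means of 14.6 on the control diet and 7.61 on NaPB. The next highest, Sis, had 0.341 and 0.448. Of 4 measured neutrophil markers 1 rose, S100a8 (86.5-fold, limma adjusted p = 0.0176), and it was not called without control replicate 1, 2 or 3 or NaPB replicate 1 or 3 (limma adjusted p from 0.0506 to 0.0654). The other 3 were not called, with log2 fold changes of 1.12 for Retnlg, 0.84 for S100a9 and −0.84 for Mpo. The list summed to 2.03 to 3.28 on the control diet and 9.54 to 134.1 on NaPB, where NaPB replicate 4 had the lowest sum. The 7 Kupffer cell and macrophage markers summed to 29.4 to 31.8 and 21.4 to 25.0, with none called and 1 lower unadjusted. In the lists for cholangiocytes, endothelial, stellate and erythroid cells, lymphocytes and exocrine pancreas no gene was called by limma; unadjusted, 1 endothelial marker was higher and 1 stellate, 2 erythroid and 1 pancreas marker lower. No measured marker was at the floor on all 8 arrays. The part of the neutrophil and macrophage lists in the Ces2 values was not tested.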

How the data were processed

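Total RNA of 8 liver samples was labelled with Cy3 and hybridised to one-colour Agilent arrays, per the labels' protocols. The deposited values are linear spot intensities made by the authors with Agilent Feature Extraction 10.7, per the submitters' processing notes; the 75th percentile of each array was 0.952 to 0.974, so each array had been scaled, by a rule not given in the sources used here, as are background correction and flags. Of 62976 features, 31465 had 1 gene symbol, none had several and 31511 had none; 3282 symbols were updated through the GRCm38.p6 gene table, used for names and gene order. Intensities were taken as log2 with no pseudocount or filter. Each of 20738 genes was represented by its brightest feature, and limma 3.58.1 in R 4.3.3 was fitted with diet as the only term, 4 arrays per diet, two-sided, with Benjamini-Hochberg adjustment. The same model was fitted to all features singly. Probe sequences were not used here, so binding of related Ces2 transcripts by a probe was not tested. Promoter windows were aligned with Biopython 1.88 (match 1, mismatch −1, gap opening −2, extension −0.5). Intensities of different probes were not read as relative transcript levels; sums over a marker list serve to compare arrays. Precision is limited by the number of arrays.

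The members, lists and tests were chosen with earlier results of these data known. Genes named are the members, the called genes of each other list or else its gene with the smallest p, the 3 nearest profiles of each called member and 4 named neighbours on each side; other names followed a look at the values. Alternatives were 3 normalizations, a filter on dim genes, the mean of a gene's features, a pseudocount of 0.0415, robust variance estimation with a trend, weights per array, a block for the replicate number, and fits without single arrays.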

Additional observations from a re-analysis of the deposited data

Results flagged for a closer look

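On 7 of 56 sets of 4 arrays (8 Ces2 features and 20 other genes, per diet) 1 array stood far from the other 3, and each time it was NaPB replicate 4. Chance alone gives about 1 such set in 20. The sets share the same arrays, and some are features of 1 gene or genes picked for like profiles. They are not independent, so the number of flagged sets was not tested against chance. The measure is the gap to the nearest other array as a share of the range of log2 values, set against Dixon's 95% critical value. It was 0.947 for Ces2b (intensity 3.00 on that array), 0.871 and 0.923 for the dimmer Ces2c features 57455 and 49963 (5.52 and 2.81), 0.898 for Cyp2b10 (77.7), 0.868 for Gstm3 (249.1), 0.933 for Pdp2 (0.338) and 0.908 for Gstm4 (45.2). The brightest feature of Ces2c and the feature of Ces2a were not among them.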

How the results depend on the processing

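Ces2a and Ces2c were called higher under all 18 alternatives, with log2 fold changes of 2.21 to 2.75 and 2.36 to 2.89, and no member was called lower under any. Ces2b was called under 6 of 18: quantile normalization, the filter on dim genes, the variance trend, array weights, without NaPB replicate 4, and without control replicate 1 and NaPB replicate 4. Its adjusted p ran from 0.00263 to 0.23. Ces2e was reversed by the mean of all features (0.21). Without single arrays, 2 to 5 Ces2 features were called higher, and 6 to 7 pairs of members differed. Without control replicate 1 and NaPB replicate 4, 0 pairs differed, because the smallest exact p is then 0.1.

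The labels state no pairing of the replicate numbers between the diets. Correlations of deviations were 0.23, −0.29, 0.04 and 0.23 for numbers 1 to 4. Control replicate 1 was most like NaPB replicate 2 (0.33), and control replicate 2 most like NaPB replicate 4 (0.37). These correlations across genes cannot decide whether samples were paired. With the replicate block, 2 members and 2 features were called higher, and 0 pairs differed, the smallest exact p being 0.125; 135 of all genes were called, against 209 without it.

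Of the other carboxylesterases, 3 were called after quantile normalization and 2 with array weights. With the filter on dim genes, the pseudocount or the variance trend 1 was called, as without control replicate 1 and NaPB replicate 4. Without single arrays the count was 0 to 1. Ces3b was called lower under 8 of 18 alternatives, with limma adjusted p from 0.0126 to 0.144. Of the neutral lipid genes, 1 was called with the mean of all features, 2 with array weights and 1 without control replicate 1 and NaPB replicate 4, and 0 without any single array. Of the phenobarbital index genes, 5 were called after quantile normalization, with the filter or with the variance trend, 9 with array weights, 3 to 8 without single arrays and 9 without control replicate 1 and NaPB replicate 4. The cause was not tested.

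Over all genes, array weights called 812, quantile normalization 328 and the median shift 111, and without single arrays 88 to 365 were called. Calls higher made 38.8% of the total with all arrays, 30.5% after quantile normalization, 56.4% with array weights, 57.8% without NaPB replicate 4 and 65.6% without control replicate 1 as well. Without single arrays the log2 fold changes ran from −0.057 to 0.62 for Ciao2b, −0.34 to 0.19 for Cdh16, −0.13 to 0.51 for Ces4a and −0.17 to 0.06 for Cbfb. Cbfb was also reversed by array weights (0.036) and without control replicate 1 and NaPB replicate 4 (0.11), where Ciao2b was at 0.72. Ces2h ran from −0.84 to 0.014 without single arrays and was at −1.03 without control replicate 1 and NaPB replicate 4. S100a8 was called under 12 of 18 alternatives. Of 446 comparisons of a named gene's value with its alternatives, 413 kept direction and side of the threshold. Spots near the floor limit what can be said of Ces2f (7 of 8 arrays at the floor), Cyp2c55 (3), Ces4a (1) and feature 28344 of Ces2e (1).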
